A study of Harpegnathos saltator with 23 samples.

Results

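The microRNA precursor rows of a brain RNA-seq table from the ponerine ant Harpegnathos saltator were chosen by their row ID, as all rows whose ID contains "mir-". There are 151 such rows among 19198 in the table, and no measured value decided which rows were taken. Earlier results of these data were known when this part was chosen. Harpegnathos workers can become egg layers after dueling, and ants that had dueled for 3 days in a row were taken on day 6 of this transition and moved to new nests in groups of 6. In each group 3 ants were injected with 100 ng of corazonin, a peptide hormone that insect neurosecretory cells release, and 3 with a scrambled peptide as control. The RNA came from brains freed of their optic lobes, was selected for poly(A) tails and was made into dUTP libraries that keep the strand. The table holds 11 control and 12 corazonin libraries made 1 day after injection, which the series title places in the head, in 4 sequencing runs (flow cells named in the labels). Controls numbered 2, 1, 3 and 5 and corazonin libraries 2, 1, 3 and 6 in the runs called A, B, C and D. Strain and age are not in the labels, nor is it said whether each library is a separate ant, so p-values measure the spread between libraries, which may be technical.

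MicroRNAs are short RNAs that pair with messenger RNAs and repress them. Each is cut from a hairpin precursor, which itself lies in a longer primary transcript that is usually capped and polyadenylated. In the nucleus the enzyme Drosha frees the hairpin, and in the cytoplasm Dicer trims it to the mature form, which is loaded into an Argonaute protein. A precursor row of a poly(A) library can therefore collect reads from the primary transcript or from a gene that holds the hairpin, and its value is not the level of the mature microRNA. The table gives no row positions, so overlap of a precursor row with a gene row could not be looked up.

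The row numbers were not read as microRNA families. The IDs run from hsal-mir-8 to hsal-mir-159 and use 151 of the 152 whole numbers in that range, leaving out 140, and no row carries the name let-7 or bantam. Such a near-complete series looks like running numbers, so a row such as hsal-mir-124 was not taken as the microRNA of that number in other animals, and no role is given to any row. None of the 19198 row IDs was found in the RefSeq gene table for this ant, which holds no microRNA rows. For the same reason the labelled tissue was not checked against brain, muscle or fat body markers, the genes of the microRNA pathway were not looked up, and no sequence is given.

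Values are RPKM, reads per kilobase of the row and per 1000000 gene reads of the library. Gene reads per library ran from 4665883 to 14567985 (run A from 7775206, run B 6265083 to 9661353, run C 6178513 to 8146381, run D up to 6686232). The whole reads behind each precursor value could be recovered, except for 3 rows seen in a single library each, where only the lowest possible number is known. For a precursor of 80 bp, the median recovered length, 1 read was worth 0.858 RPKM in the deepest library and 2.68 RPKM in the shallowest. Libraries of run D held 1.18% to 5.36% ribosomal RNA among all reads, against 0.111% to 0.623% in runs A to C.

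Most precursor rows held no reads, and a single row held most of the reads there were. Of the 151 rows, 47 were above 0 in at least 1 library and 104 were at 0 in all 23 libraries. A count of 0 over all 168434511 gene reads allows up to 0.0178 reads per 1000000 gene reads (RPM here). Of the 47 rows, 20 were above 0 in 1 library, 17 in 2 to 5 libraries, 6 in 6 to 11, 3 in 12 to 22, and 1 in every library. Only 5.79% of the 3473 values were above 0, and 90 of these 201 values stood for 1 read. The precursor rows held 1708 reads in all, or 10.1 RPM.

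**Figure D1:**
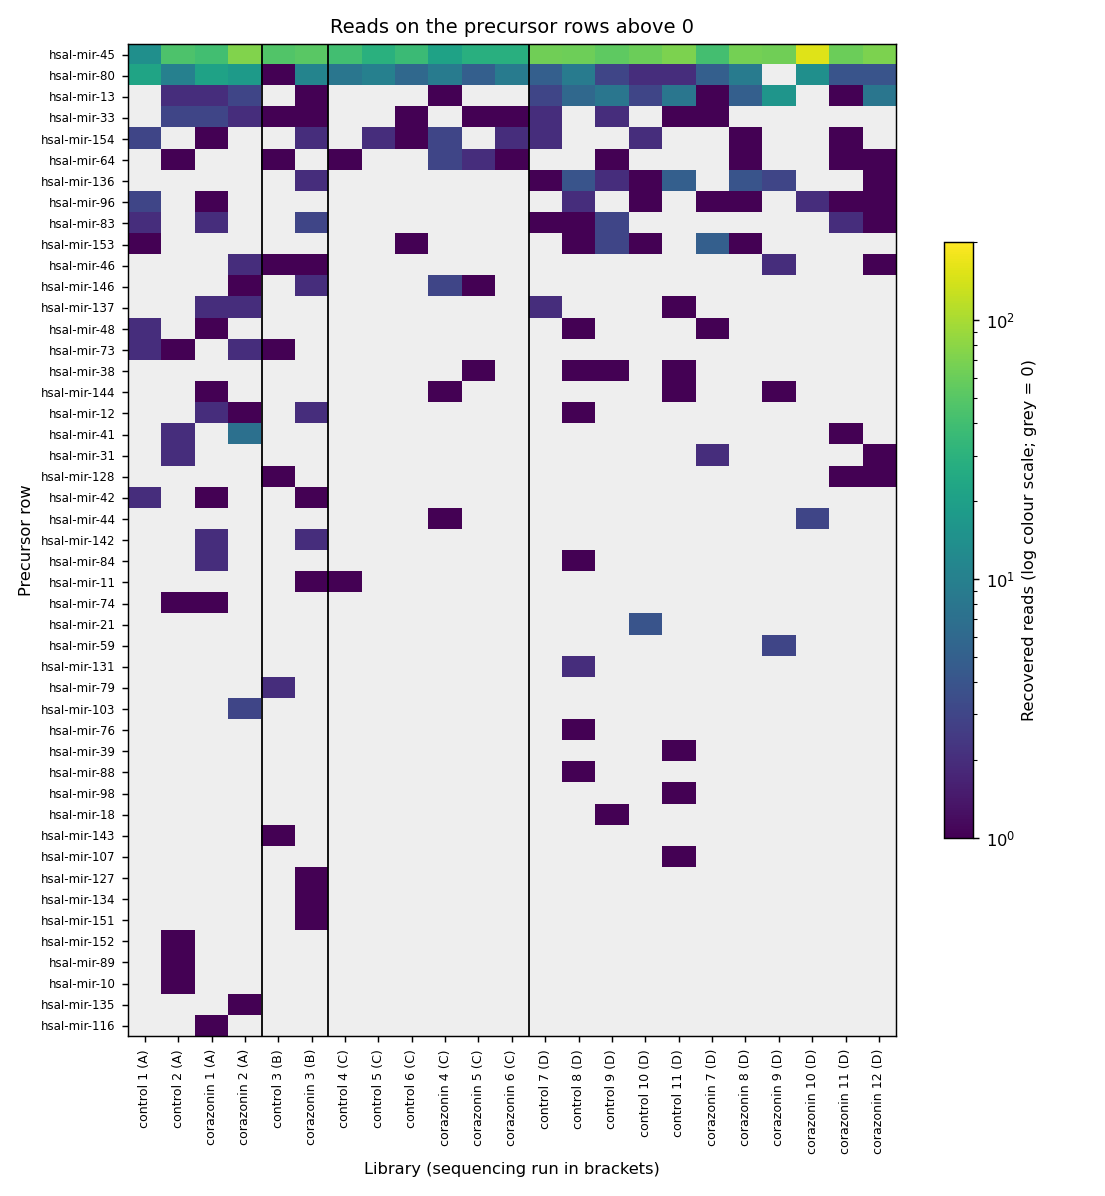
Recovered reads on each of the 47 precursor rows above 0 (vertical axis) in each of the 23 libraries (horizontal axis, with the run in brackets; black lines part the runs). Colour gives reads on a log scale and grey marks 0; hsal-mir-45 is filled in all 23 libraries and hsal-mir-80 in 22, while most other cells are grey or hold 1 read.

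hsal-mir-45 took 1225 of the 1708 precursor reads, or 71.7%. Its mean over the 23 libraries was 98.9 RPKM, above the means of 95.3% of the gene rows, those at 0 included. RPKM divides by length, and at 84 bp this row held 14 to 156 reads in a library. hsal-mir-80 followed with 187 reads (10.9% of precursor reads) and a mean of 12.7 RPKM, and hsal-mir-13 with 68 reads (3.98%) and a mean of 6.48 RPKM. The other 44 rows above 0 shared 228 reads, or 13.3%. Among those, the rows whose mean reached 1 RPKM were hsal-mir-136 (2.31 RPKM, above 0 in 9 libraries), hsal-mir-154 (1.44 RPKM, 11 libraries), hsal-mir-153 (1.24 RPKM, 7 libraries), hsal-mir-96 (1.20 RPKM, 9 libraries), hsal-mir-33 (1.18 RPKM, 12 libraries) and hsal-mir-64 (1.01 RPKM, 10 libraries). hsal-mir-83, at a mean of 0.931 RPKM in 8 libraries, lay just under that mark.

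The rows seen in 2 to 5 libraries were hsal-mir-46 with 5 libraries, then hsal-mir-146, hsal-mir-137, hsal-mir-48, hsal-mir-73, hsal-mir-38, hsal-mir-144 and hsal-mir-12 with 4 each. A further 4, hsal-mir-41, hsal-mir-31, hsal-mir-128 and hsal-mir-42, were above 0 in 3 libraries. In 2 libraries were hsal-mir-44, hsal-mir-142, hsal-mir-84, hsal-mir-11 and hsal-mir-74. Their highest values ran from 1.01 RPKM for hsal-mir-74 to 6.33 RPKM for hsal-mir-41, whose 7 reads in corazonin replicate 2 were the most of any of these rows in a library. Among rows seen in a single library, the highest value was 12.0 RPKM for hsal-mir-21 in control replicate 10, and the next 8.51 RPKM for hsal-mir-59 in corazonin replicate 9. These heights stand for a few reads each, at least 4 for hsal-mir-21 and at least 3 for hsal-mir-59, whose exact numbers could not be fixed.

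hsal-mir-45 was seen in all libraries at levels from 21.4 to 306 RPKM. The run A controls stood at 21.4 and 40.3 RPKM and the corazonin libraries of that run at 32.7 and 67.7. Run B gave 89.3 RPKM in its control and 64.1 in its corazonin library. Run C gave 48.1, 56.9 and 70.7 RPKM in controls and 30.7, 53.0 and 54.0 in corazonin libraries. The groups crossed each other in runs A and C, and run B had 1 library of each. In run D the controls stood at 112, 116, 133, 139 and 154 RPKM. The corazonin libraries of run D ranged from 79.9 to 306 RPKM with a median of 151, so they reached both below and above the controls. The highest value, 306 RPKM from 156 reads, was in corazonin replicate 10, and the next highest in any library was 168 RPKM in corazonin replicate 8.

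In reads, the run D controls held 54 to 71 of hsal-mir-45 each. The corazonin libraries of that run held 41 to 71, except corazonin replicate 10 with 156.

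hsal-mir-80 was uneven within runs. Over controls it ranged from 1.90 to 33.7 RPKM with a median of 8.90, and over corazonin libraries from 0 to 27.5 RPKM with a median of 13.4. The extremes were control replicate 1 at 33.7 RPKM (22 reads), control replicate 3 at 1.90 RPKM (1 read) and corazonin replicate 9 at 0. In run C all 6 libraries lay between 9.23 and 17.05 RPKM. The groups overlapped in runs A, C and D.

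hsal-mir-13 was mostly a run D row, with 59 of its 68 reads there. In run D the controls stood at 5.61, 7.19, 13.5, 18.0 and 18.2 RPKM, and the corazonin libraries ranged from 0 to 42.5 RPKM with a median of 7.87. Corazonin replicate 9 was highest with 16 reads, and corazonin replicates 7, 10 and 11 were at 2.05, 0 and 2.35 RPKM. Outside run D only 5 of 12 libraries were above 0, none above 2.88 RPKM.

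hsal-mir-136 was also seen mostly in run D. In that run its controls stood at 1.89, 2.43, 4.56, 9.11 and 11.5 RPKM, and its corazonin libraries ranged from 0 to 10.9 RPKM with a median of 1.07. All 5 controls of run D were above 0 and 3 of its 6 corazonin libraries were, and the groups overlapped.

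The remaining rows of this level held few reads in any library. hsal-mir-33 was above 0 in 6 libraries of each group and reached 4.24 RPKM, from 2 reads, in control replicate 9. hsal-mir-154 was above 0 in 5 control and 6 corazonin libraries, with 10 reads in each group and its highest value, 4.49 RPKM, in control replicate 1. Both were seen in every run. hsal-mir-96 had no reads in runs B and C and reached 5.14 RPKM in control replicate 1. In run D 5 of the 6 corazonin libraries and 2 of the 5 controls held 1 or 2 reads of it, and the groups overlapped. hsal-mir-153 had 11 of its 13 reads in run D, of which corazonin replicate 7 held 5 and control replicate 9 held 3. It was above 0 in 5 control libraries and 2 corazonin libraries.

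**Figure D2:**
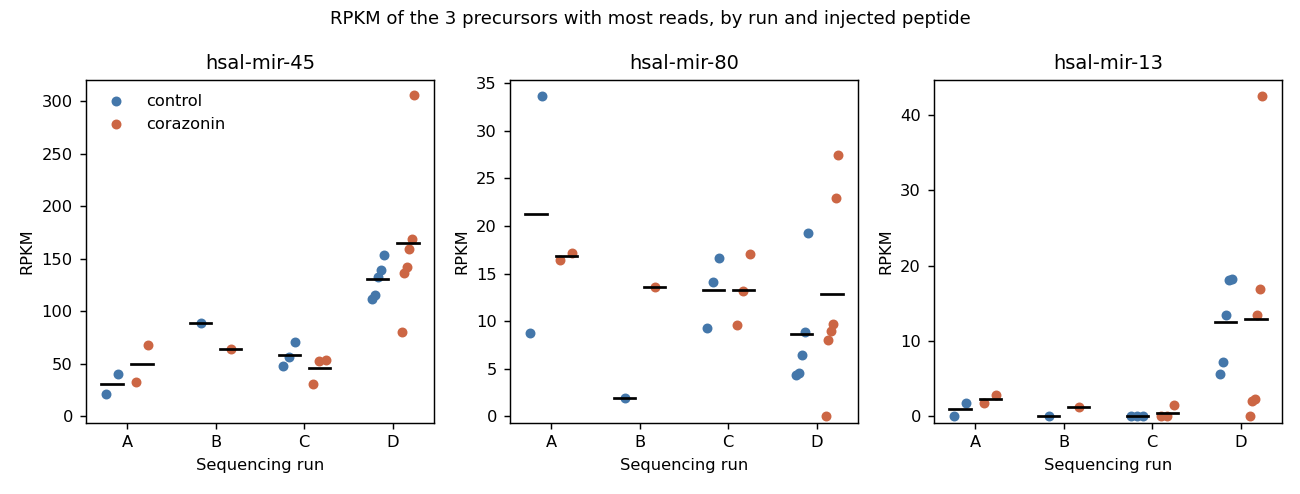
RPKM (linear axis) of hsal-mir-45, hsal-mir-80 and hsal-mir-13 in each of the 23 libraries by sequencing run, with control libraries in blue, corazonin libraries in orange and a black line at each mean. hsal-mir-45 and hsal-mir-13 stand higher in run D in both groups, and the groups overlap in runs A, C and D for all 3 rows.

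The first comparison set corazonin against control, and no precursor passed. Of 10225 rows tested with limma, on log2(RPKM + 1) and with a term for run, 9 were precursor rows. None of the 9 had a Benjamini-Hochberg adjusted p under 0.05, where 0% of all rows did, and none an unadjusted p under 0.05, where 7.33% of all rows did. Those 750 rows became 390 without corazonin replicate 3 and 1516 without corazonin replicate 9. The smallest unadjusted p among the 9 was 0.200 and their smallest adjusted p 0.663. Fold changes were positive for 4 rows and negative for 5, with a median of -0.01 on the log2 scale, beside -0.02 over all rows tested. The median standard error was 0.42 for the precursor rows and 0.15 for all rows. A filter on mean level chose the 9 rows without regard to group. The submitters' library prefixes followed the groups in run A and set apart 3 corazonin libraries of run D (replicates 7, 8 and 9), so prefix and peptide cannot be told apart there.

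hsal-mir-45 averaged 89.1 ± 44.5 RPKM in controls (SD, n = 11) and 108 ± 79.5 RPKM in corazonin libraries (SD, n = 12). Its run-adjusted log2 fold change was 0.09 ± 0.19 (SE), with a 95% interval from -0.31 to 0.49 and a limma adjusted p of 0.875. Within runs, the log2 difference of corazonin minus control was 0.66 for run A, -0.47 for run B, -0.37 for run C, and for run D 0.23. The sign differed between runs, and the pooled value was -0.0085 without corazonin replicate 10 and -0.0107 without corazonin replicate 2.

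hsal-mir-80 averaged 11.6 ± 9.07 RPKM in controls (SD, n = 11) and 13.7 ± 7.27 RPKM in corazonin libraries (SD, n = 12). The log2 fold change was 0.26 ± 0.43 (SE), interval -0.62 to 1.14, with a limma adjusted p of 0.826. Run B, where the control held 1 read and the corazonin library 11, gave a log2 difference of 2.33, against -0.05, -0.0020 and 0.13 in runs A, C and D. Without control replicate 3, that single read's library, the fold change was 0.06. It was 0.56 without corazonin replicate 9, where the row was at 0, and 0.63 with run and library prefix as a joint term.

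hsal-mir-13 averaged 5.85 ± 7.40 RPKM in controls (SD, n = 11) and 7.05 ± 12.4 RPKM in corazonin libraries (SD, n = 12). The log2 fold change was -0.01 ± 0.49 (SE), interval -1.01 to 1.001, with a limma adjusted p of 0.997. This scale narrows the changes of a row with many values at 0, and at a pseudocount of 0.1 the fold change was 0.41 ± 0.87 (SE). Within runs the log2 difference was 0.95, 1.20 and 0.45 in runs A, B and C, on 9 reads in all, and -0.83 in run D. The mean RPKM in run D was nonetheless close, at 12.9 in corazonin libraries and 12.5 in controls.

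The other 6 tested rows rested on 13 to 23 reads each. Their log2 fold changes were -0.39 for hsal-mir-136, 0.45 for hsal-mir-64, -0.44 for hsal-mir-153, -0.23 for hsal-mir-33, 0.20 for hsal-mir-96 and -0.04 for hsal-mir-154. The row with the smallest p by limma, hsal-mir-64, had 9 reads in corazonin libraries and 4 in controls. In run C it stood at 1.87, 3.81 and 4.33 RPKM in corazonin libraries and at 0, 0 and 1.75 RPKM in controls. The values of 1.87 and 1.75 RPKM each stood for 1 read, so the groups met in reads there. In run A, where hsal-mir-64 was at 0 in both corazonin libraries, the log2 difference was -0.45. It was -1.52 in run B, on 1 read, and 0.52 in run D.

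**Figure D3:**
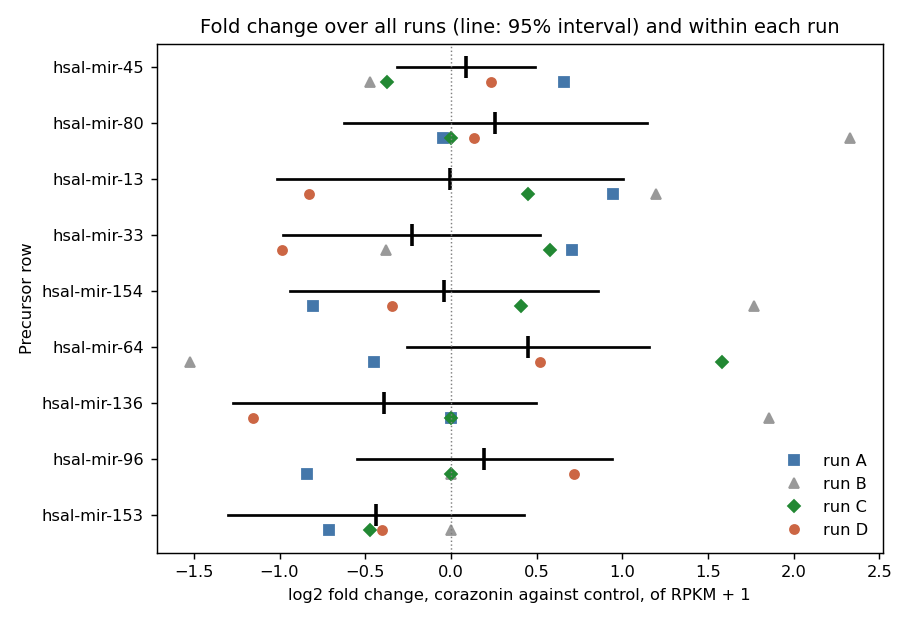
log2 fold change of RPKM + 1, corazonin against control, for the 9 tested precursor rows: black ticks and lines give the run-adjusted limma estimate and its 95% interval, and coloured points the difference of group means within runs A to D. All 9 intervals include 0, and only hsal-mir-153 has no run on the positive side.

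Rows under the filter could be fitted too, as an alternative, and gave no call. With all 47 rows above 0 in the fit, none had an adjusted p under 0.05 by limma, and 1 had an unadjusted p under 0.05, where 6.15% of all 15930 rows did. That row was hsal-mir-146, singled out here after its values were seen, with 7 reads in 4 corazonin libraries and none in controls (log2 fold change 0.60, unadjusted p = 0.0171, adjusted p = 0.744 by limma). Its reads were 1 in corazonin replicate 2, 2 in corazonin replicate 3, 3 in corazonin replicate 4 and 1 in corazonin replicate 5. By presence, 24 rows were above 0 in both groups, 13 in control libraries alone and 10 in corazonin libraries alone. The rows seen in 1 group alone were 48.9% of the 47, and 8.56% of all 15930 rows above 0, which were not matched to the precursors in reads. Of the 47, 20 were above 0 in a single library and so in 1 group alone by construction. The 2 shares therefore say nothing about the peptide. The most reads of a row were 4 among those seen in controls alone and 7 among those seen in corazonin libraries alone, over 77779816 and 90654695 gene reads.

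The summed precursor level ran from 5.23 to 16.9 RPM in controls and from 5.16 to 28.9 in corazonin libraries. The run-adjusted log2 difference was 0.10 ± 0.15 (SE), a description with no test, and 0.21 ± 0.21 (SE) with hsal-mir-45 left out of the sum. Within runs it was 0.28, -0.04, -0.10 and 0.17 in runs A to D.

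The second comparison asked whether the corazonin difference varied between runs, leaving out run B with its single library of each kind. No precursor row passed limma's interaction F test at an adjusted p under 0.05, where 0% of 10225 rows did, and none had an unadjusted p under 0.05, where 0.998% did. The smallest interaction p values of the precursors were 0.110 for hsal-mir-33 and 0.111 for hsal-mir-64 by limma, both with an adjusted p of 0.99999.

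The contrast of run D with the mean of runs A, B and C was added after the values were seen. Its p-values are therefore a description. hsal-mir-45, hsal-mir-80, hsal-mir-33 and hsal-mir-154 had a mean of at least 1 RPKM both in run D and over runs A to C. By limma, hsal-mir-45 was higher in run D at an adjusted p under 0.05, where 38.2% of all rows were higher and 29.8% lower. The adjusted p of the other rows named with it was 0.424, 0.358 and 0.597 by limma, in the same order. hsal-mir-13, hsal-mir-136, hsal-mir-96 and hsal-mir-153 averaged 0.772, 0.218, 0.505 and 0.279 RPKM over runs A to C and passed the filter through run D alone. hsal-mir-64, at 0.803 RPKM in run D, passed it through the other runs. For these 5 rows the filter favours a difference, so their run values are a description with no test. A run is a flow cell, and ants, dates and library preparation that go with it cannot be told apart from it.

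hsal-mir-45 averaged 150 ± 57.4 RPKM in run D (SD, n = 11) and 52.4 ± 19.2 RPKM in the 12 libraries of runs A to C. Its log2 difference was 1.42 ± 0.20 (SE), limma adjusted p = 5.22e-06. That SE and p rest on the spread between libraries within runs. Run D is a single flow cell, so they do not measure the spread between runs. The means of runs A, B and C themselves were 40.5, 76.7 and 52.2 RPKM. Pooled reads came to 12.5 RPM in run D (95% exact Poisson interval 11.7 to 13.5) and 4.26 in runs A to C (3.87 to 4.67). Such intervals cover counting error only, since they pool reads and leave out the spread between libraries. Between the run D libraries the variance of hsal-mir-45 reads was 12.6 times their mean. Without molecular identifiers, PCR copies of a molecule also count as separate reads. In run D 10 of 11 libraries lay above the highest library of the other runs, control replicate 3 at 89.3 RPKM, and corazonin replicate 7 lay below it.

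hsal-mir-13 stood at 0.962 RPM in run D (Poisson interval 0.733 to 1.24) and at 0.0840 in runs A to C (0.0384 to 0.159). hsal-mir-136 had 21 of its 23 reads in run D. It was at 0 in all 10 libraries of runs A and C, which allows up to 0.0329 RPM, against 0.343 in run D (0.212 to 0.524). The other 2 reads were in corazonin replicate 3 of run B. hsal-mir-96 rested on 9 reads in run D and 4 elsewhere, and averaged 1.96 RPKM in run D.

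Ribosomal and small nuclear RNA reads also stood higher in run D. Ribosomal RNA took 11940 to 56743 RPM there, against 1107 to 6271 in runs A to C, and the small nuclear RNAs 222 to 1291 against 37.4 to 147. The part of this in the precursor values was not tested. Within run D, the library with the most hsal-mir-45, corazonin replicate 10 at 306 RPKM, had 25382 RPM of rRNA. The libraries with the most and the least rRNA were control replicate 11 at 56743 RPM and corazonin replicate 11 at 11940 RPM. They had 154 and 136 RPKM of hsal-mir-45. These are picked extremes, and the relation over the libraries of run D was not tested. With the rRNA level as a further term, no precursor passed in the comparison of corazonin with control. The contrast of run D with the other runs was not fitted with that term.

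**Figure D4:**
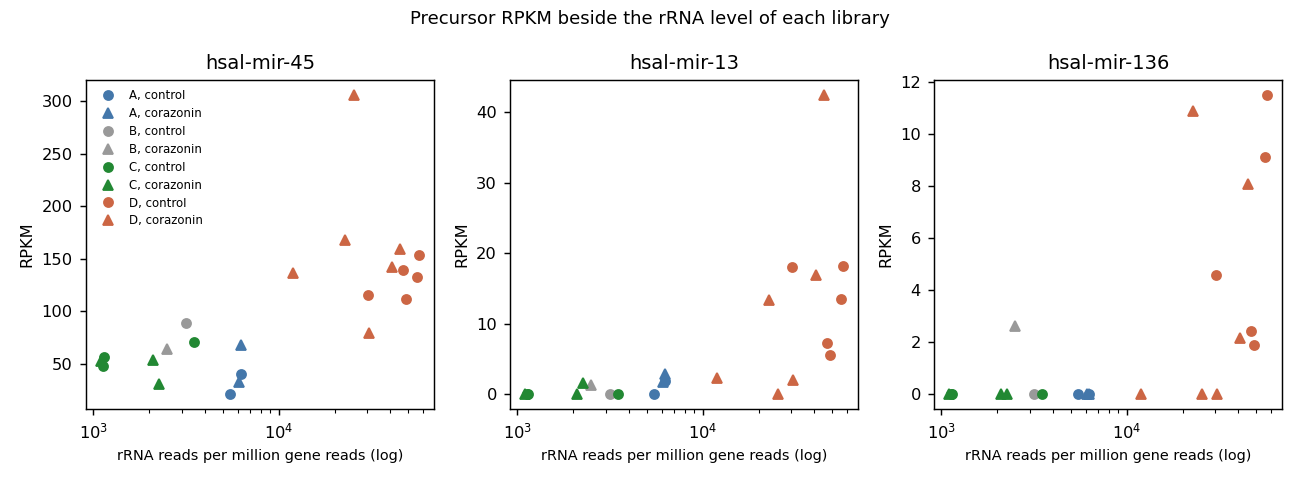
RPKM (linear axis) of hsal-mir-45, hsal-mir-13 and hsal-mir-136 against rRNA reads per 1000000 gene reads (log axis) in the 23 libraries, coloured by run, with circles for control and triangles for corazonin. Run D stands to the right at 11940 reads or more and holds the highest values of all 3 rows.

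The 6 libraries of run C held 12 rows above 0 on 42250177 gene reads, against 28 rows in the 4 libraries of run A (48947684 gene reads), 21 in the 2 of run B (15926436) and 30 in the 11 of run D (61310214). Each run C library held 3 to 8 rows above 0, against 9 to 16 in runs A and B and 4 to 14 in run D, which overlaps run C. Without hsal-mir-45, pooled precursor reads were 1.78 RPM in run C (Poisson interval 1.40 to 2.23), 3.003 in run A (2.54 to 3.53), 2.57 in run B (1.85 to 3.49) and 3.59 in run D (3.13 to 4.10). These intervals leave out the spread between libraries. By library the level ran from 1.16 to 2.58 RPM in run C and from 1.84 to 4.76 in run A. Runs B and D gave 1.44 to 3.31 and 2.25 to 5.58 RPM, so run C overlapped every other run. Transfer RNA reads were lowest in run C as well, at 0.148 to 1.55 RPM, against 11.4 to 54.4 in the other runs. Their part in the low pooled value of run C was not tested.

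Precursors that varied alike were looked for on log2(RPKM + 1) centred within run, over the 23 libraries and with no test. The closest pair was hsal-mir-13 and hsal-mir-136, with a Pearson r of 0.80. hsal-mir-136 was at 0 in all 10 libraries of runs A and C, so their shared variation comes from runs B and D alone. In run D hsal-mir-136 was at 0 in corazonin replicates 7, 10 and 11, the libraries where hsal-mir-13 was at 2.35 RPKM or less. It was highest, at 11.5, 10.9 and 9.11 RPKM, in control replicate 11, corazonin replicate 8 and control replicate 8, where hsal-mir-13 stood at 18.2, 13.4 and 13.5 RPKM. In the library with the most hsal-mir-13, corazonin replicate 9 at 42.5 RPKM, it was at 8.08 RPKM. In control replicate 9 and corazonin replicate 12, with 18.0 and 16.9 RPKM of hsal-mir-13, it was at 4.56 and 2.13 RPKM. hsal-mir-80 and hsal-mir-96 followed with an r of 0.63. hsal-mir-96 had no reads in runs B and C, so their shared variation comes from runs A and D alone. Both pairs are the best of those compared and rest on few reads. The row nearest to hsal-mir-45 was hsal-mir-80, at an r of -0.02, the highest r it had with any tested precursor.

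Among 10146 gene rows, those nearest to hsal-mir-80 were Hsal_05696, Hsal_12722 and Hsal_09149, with an r of 0.91, 0.90 and 0.89. Hsal_05696 stood at 9.37 RPKM in corazonin replicate 9, its lowest value and the library where hsal-mir-80 was at 0. It was at 37.8 RPKM in control replicate 1, where hsal-mir-80 was highest, and at 24.7 RPKM in control replicate 3, where hsal-mir-80 held 1 read. For hsal-mir-45 the nearest gene row was Hsal_00781 with an r of 0.79, which was also highest in corazonin replicate 10, at 33.5 RPKM, the next highest library being control replicate 10 at 20.3 RPKM. Hsal_00781 and Hsal_05696 are the best of many rows searched. Over the 9 precursors the nearest gene row had an r of 0.67 to 0.91, and hsal-mir-154, on 20 reads, reached 0.85. Libraries of a run share its flow cell, and the files give no names or positions for these gene rows.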

How the data were processed

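The authors deposited RPKM values with a column for each library and no pooling. Tools named in the submitters' processing notes are STAR 2.5.0b and DESeq2, with no role stated. Neither the genome build nor the annotation, the read counter or its use of strand is given in the sources used. A comparison table by the authors holds gene rows alone and was not used. A deposited table pairs sample titles with columns.

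Reads were recovered from the step that 1 read makes in each row. Of all 280015 values above 0, 279998 came out whole within 0.01 reads. All 23 library totals were whole, and all 201 precursor values above 0 were whole within 0.0001 reads for a length of 60 to 110 bp. For 3 rows, hsal-mir-21, hsal-mir-59 and hsal-mir-103, more than 1 length met this and the lowest read number was used. Of all rows, 10225 had a mean of 1 RPKM or more. They were fitted in R 4.3.3 by limma 3.58.1 (log2 of RPKM plus a pseudocount of 1, terms for peptide and run, trended and robust eBayes), and p-values were adjusted over all of them by Benjamini-Hochberg at 0.05. Fold changes on this scale understate those of low rows. Recovery was tried on simulated reads and the fits on simulated log2 values with normal noise. Such values have no floor at 0, so they do not test the fits on rows of few reads. Python 3.11.15, pandas 2.3.3 and SciPy 1.17.1 did the rest.

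Precursors were named with values where their mean was at least 1 RPKM or they were above 0 in at least 12 libraries. Members, lists and tests were chosen with earlier results of these data known. Groups of precursors by family name, microRNA pathway genes and tissue markers were not analysed here for want of gene names. Alternatives were other filters, pseudocounts and scalings, other terms, array weights, limma-voom on recovered reads, a replicate block, and leaving out each run or library.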

Additional observations from a re-analysis of the deposited data

Results flagged for a closer look

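Within run D, where groups hold 5 or 6 libraries, 3 values lay apart from the rest of their group by Dixon's 95% criterion, among 22 groups checked. The criterion's chance rate of 1 in 20 is for normally distributed values and does not hold for low counts with many at 0. hsal-mir-153 stood at 10.6 RPKM, or 5 reads, in corazonin replicate 7, where the other corazonin libraries of the run held at most 1 read. hsal-mir-33 stood at 1.93 RPKM in corazonin replicate 7 and hsal-mir-64 at 2.12 RPKM in control replicate 9. Each of these 2 values is 1 read beside libraries at 0, which the criterion flags by construction.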

How the results depend on the processing

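No precursor was called between corazonin and control in any alternative run: over 327 refits of the named precursors the smallest adjusted p was 0.332, and 37 of these had the other sign, all uncalled. Counts of all rows called were 1 without the 3 run D corazonin libraries of another prefix and 1 without run B, and 0 to 1 when a library was left out (1 without control 3, corazonin 2 or corazonin 3). For the interaction they were 8 with no filter, none a precursor, 1 at a pseudocount of 0.1, and from 0 to 1 when each library was left out, 1 without control 6 or 11. The cause was not tested. By unadjusted p under 0.05, 135 rows passed when run was dropped, 376 with an rRNA term, 1316 with run and prefix joined, 1727 with array weights, 1631 without the 3 libraries, and 391, 259 and 1731 without runs B, C and D, beside the 750 reported. They were 1267, 475, 394 and 492 without control 1, 2, 3 or 4, and 390, 490 and 1516 without corazonin 3, 6 or 9. Limma-voom on recovered reads called 0 rows (978 unadjusted). Precursor rows above 0 fell from 47 to 27 when 2 libraries were asked for and to 28 at 3 reads, and were 44 to 47 over left-out libraries, fewer rows being the construction. At an adjusted p under 0.05, run D differed in 4 of 9 precursors (68.1% of all rows). Of these, the filter let in all but hsal-mir-45 via run D. The contrast was added after values were seen, so its p and counts are a description. Counts were 12 of 47 with no filter (47.7%) and 3 to 5 over left-out libraries. At a mean of 5 RPKM or more it was 2 of 3 (73.1%), hsal-mir-13 again via run D.

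Uncalled fold changes changed sign as follows. hsal-mir-45 was -0.05004 with array weights, -0.0329 without run A and -0.0451 without run D, and -0.0107 to 0.17 over left-out libraries. hsal-mir-13 was 0.41 at a pseudocount of 0.1, 0.0043 with median-ratio scaling, 0.11 with no run term, 0.34 with an rRNA term and 0.0033 with array weights (left-out libraries -0.21 to 0.28). hsal-mir-154 was 0.0576 at a pseudocount of 0.1, 0.21 with run and prefix joined, 0.0013 without the 3 libraries, 0.12 without run A and 0.23 without run D (left-out libraries -0.22 to 0.16). hsal-mir-33 was 0.46 without run D. For run D against the others, hsal-mir-64 was 0.0176 with array weights and 0.38 by voom, and hsal-mir-154 0.10 by voom (left-out libraries -0.60 to 0.0588).

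The median over tested precursors was -0.17 to 0.15 and the summed difference 0.02 to 0.17 over left-out libraries. hsal-mir-64 was tested in 14 of 23 such fits and hsal-mir-153 in 21, falling under the filter otherwise. Same-numbered libraries correlated around their run and group means at -0.55 to 0.47. Of 9 separate values, run A's pairs being equal by construction, 2 were over 0.1, and the labels tie no number to a nest, so the numbers were not taken as pairs. Under a replicate block without corazonin replicate 12, 0 rows were called, 1108 had an unadjusted p under 0.05, the summed difference was 0.11, and hsal-mir-154 turned to 0.0224. The run contrast was added after the data were seen.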
